A study of Mus musculus with 6 samples.

Results

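Complement is a cascade of plasma and tissue proteins, and 9 of its genes were followed here through the hearts of mice with Ang II-induced cardiac hypertrophy. They are C1qa, C1qb and C1qc (the chains of C1q), C3ar1, C1ra, C1s1, C3, C4b and Serping1, chosen by gene name from the 30914 genes of the deposited table. The first 4 genes listed here were taken as macrophage-made and the other 5 as fibroblast-made. A single library was made from each of 6 hearts, 3 per group, all from wild-type male C57BL/6J mice aged 8 weeks at the start. Every mouse carried an osmotic pump that delivered angiotensin II (Ang II, 1 μg/kg/min) during 4 weeks, and the Ang II + Tec group was also given the flavonoid tectochrysin (Tec) at 5 mg/kg over the last 2 weeks. No heart without Ang II was analysed here, so each difference is between hearts given Ang II with and without Tec, called treated hearts and Ang II hearts, and not from a normal level.

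In the classical pathway C1q binds antibody or altered surfaces and activates its partner proteases C1r and C1s. C1s cleaves C4 and C2 to build the enzyme that splits C3, C3 fragments then coat the target, and the small fragment C3a signals through its receptor C3ar1. The C1 inhibitor, encoded by Serping1, inactivates C1r and C1s. The liver makes most circulating complement proteins, but C1q is made in tissues largely by macrophages, whereas stromal cells such as fibroblasts make C1r, C1s, C3, C4 and the C1 inhibitor locally. Heart tissue was sequenced in bulk, so fewer cells of a type and less RNA per cell cannot be told apart.

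All 9 genes lay at coordinates in the table that equal those of GENCODE release M21 on GRCm38. C1qb (chr4:136880129-136886187), C1qc (chr4:136889804-136893065) and C1qa (chr4:136895917-136898803) lie side by side on the minus strand. C1ra (chr6:124512405-124523443, plus strand) and C1s1 (chr6:124530345-124542359, minus strand) are convergent neighbours. C3ar1 lies at chr6:122847138-122856161, C3 at chr17:57203970-57228136, C4b at chr17:34728380-34743882 and Serping1 at chr2:84765387-84775444, all on the minus strand.

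The promoters of 2 C1q chains and of C3 are shown because the chains varied together between hearts. C3 departed from them mainly in a single heart, Ang II + Tec replicate 2. Each sequence runs 5′ to 3′ from 250 bases before to 50 bases after the start, from RefSeq on GRCm38.p6, minus strand. They cover chr4:136886151-136886450 for C1qb, chr4:136892865-136893164 for C1qc and chr17:57228087-57228386 for C3. Capitals mark the ETS core GAGGAA as bound by PU.1, a myeloid transcription factor, or its reverse complement TTCCTC, and in C3 the letters TTGCNNAA of a C/EBP site.
C1qb: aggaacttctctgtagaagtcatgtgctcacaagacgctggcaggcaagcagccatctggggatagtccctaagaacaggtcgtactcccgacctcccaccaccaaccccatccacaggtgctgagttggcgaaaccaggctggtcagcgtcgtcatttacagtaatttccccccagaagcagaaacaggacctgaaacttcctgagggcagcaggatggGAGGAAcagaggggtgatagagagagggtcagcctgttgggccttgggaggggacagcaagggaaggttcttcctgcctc
C1qc: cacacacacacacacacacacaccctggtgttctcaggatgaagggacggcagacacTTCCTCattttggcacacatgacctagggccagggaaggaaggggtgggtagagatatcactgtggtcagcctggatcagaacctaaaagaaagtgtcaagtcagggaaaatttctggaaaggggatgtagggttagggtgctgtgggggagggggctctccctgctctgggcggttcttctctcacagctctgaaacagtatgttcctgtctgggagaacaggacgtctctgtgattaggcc
C3: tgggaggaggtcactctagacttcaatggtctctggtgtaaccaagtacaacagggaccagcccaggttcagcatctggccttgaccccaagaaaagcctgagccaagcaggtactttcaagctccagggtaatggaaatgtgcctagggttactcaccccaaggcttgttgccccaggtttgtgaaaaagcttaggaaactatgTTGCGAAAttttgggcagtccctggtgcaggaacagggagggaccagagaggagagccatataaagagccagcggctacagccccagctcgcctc

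Both C1q promoters held the ETS core, 30 bases before the start in C1qb and 193 bases before it, on the other strand, in C1qc. In the C3 promoter a C/EBP match began 45 bases before the start. Searched on both strands, the ETS core occurred in 28.3% of all 32851 promoters of this length and the C/EBP letters in 10.8%. The windows of C1qb, C1qc and C3 did not hold GAAANNGAA, an interferon regulatory factor motif present in 8.56% of promoters, or TTCNNNGAA, a STAT motif present in 8.30%. Of the other members with a RefSeq window, C1ra had an ETS core 44 bases after the start, overlapping no other match, with a C/EBP match at 16 and a STAT match at 32 bases after it. One of 2 windows of C1s1 had a C/EBP match 242 bases before the start, and the window of C3ar1 held none of the 4 motifs. These matches are descriptions of letters, not of bound sites.

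Levels are given as FPKM (mapped fragments scaled by transcript length and by the library's total) and can be set side by side between genes. Differences between the groups are log2 fold changes of FPKM + 1, Ang II + Tec minus Ang II, from limma. The call of differential expression required both an adjusted p-value under 0.05 (Benjamini-Hochberg over all 13089 genes tested) and a log2 fold change of 1 or more in size. With 3 hearts against 3, an exact permutation test of one gene cannot give a two-sided p-value below 0.1. The labels number the hearts but name no litter or batch, so p-values measure only the spread between these 6 libraries.

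Ang II replicates 1 and 2 and Ang II + Tec replicate 2 carried abundant transcripts of atrial myocytes, and these libraries also stood apart for several members. The atrial light chain Myl7 was at 419, 332 and 0 FPKM in Ang II replicates 1 to 3, and at 0, 1040 and 1.58 FPKM in treated hearts. Myl4 was at 150, 330 and 0.56 FPKM in Ang II hearts and at 0.29, 249 and 1.02 FPKM in treated hearts. The summed level of 4 atrial markers (Myl7, Myl4, Sln and Nppa) was 6204, 10253 and 256 FPKM in Ang II hearts. It was 906, 5032 and 128 FPKM in treated hearts. Most of each sum was Nppa, at 906 FPKM in Ang II + Tec replicate 1, where Myl7 was at 0. The paper measured this transcript, as Anp, as a readout of hypertrophy, so the sum does not mark atrial tissue alone. How much of each heart, and which chambers, entered a library is not given in the sources used here. The difference of each component is therefore also given from a fit with the presence of atrial transcripts (Myl7 over 100 FPKM) as a term, an alternative chosen after seeing the data. Where a difference is given within the hearts with atrial transcripts it sets 1 treated heart against 2 Ang II hearts, and within those without it sets 2 treated hearts against 1, with no test. Defining cardiomyocyte genes were abundant in every library, with a summed level of 8 markers between 8724 and 10745 FPKM, as the label heart requires. The relative depth of the libraries, read from the spacing of low FPKM, ranged from 0.890 to 1.20, and mitochondrial transcripts took 40.1% to 52.5% of all FPKM. The median log2 fold change of all genes tested was -0.17, and 0.0020 after median-of-ratios scaling.

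The mean of every component was lower after Tec, none was called differentially expressed, and the 3 chains of C1q showed the clearest separation. The C1q chains stood at 24.7 to 91.3 FPKM in Ang II hearts and at 15.4 to 34.7 FPKM after Tec, with each chain's highest Tec value below its lowest Ang II value. Of the 9 genes, all passed the filter on low values, 5 passed an unadjusted p-value of 0.05 and limma called 0, with adjusted p-values from 0.154 to 0.664. Among all genes tested, 0.16% were called differentially expressed (21 genes, 11 higher and 10 lower), 16.5% were lower with an unadjusted p-value under 0.05, and 80% had a lower estimate. Groups without overlap, lower with Tec, were found for 18.9% of all genes and for 3 of the 9 components. The median log2 fold change was -0.64 over the 9 components, each of which lay below the -0.17 of all genes. The components were chosen with earlier results of these data known, so this is a description with no test.

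**Figure D1:**
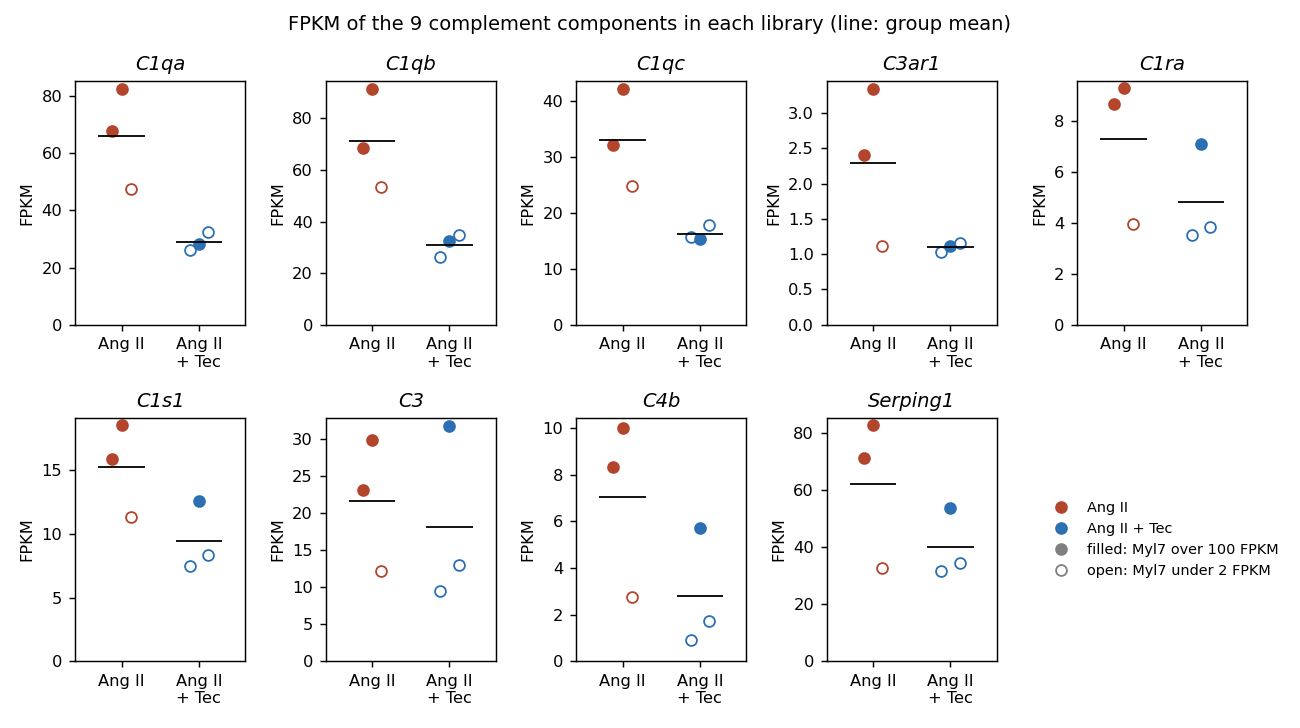
FPKM (linear axis from 0) of each of the 9 components in the 6 libraries, by group. Points are single hearts, lines are group means, and filled points are libraries with Myl7 over 100 FPKM. The C1q chains separate the groups, with C1qa at 47.4 FPKM or more in Ang II hearts and at 32.3 FPKM or less after Tec, while the Ang II + Tec heart with atrial transcripts is the highest of its group for C1ra, C1s1, C3, C4b and Serping1.

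C1qa encodes the A chain of C1q, the recognition part of the first component. It was at 67.9, 82.5 and 47.4 FPKM in Ang II replicates 1 to 3 and at 26.3, 28.1 and 32.3 FPKM in treated hearts. All 3 treated hearts lay below all 3 Ang II hearts. The group means were 65.9 ± 17.6 and 28.9 ± 3.07 FPKM (SD, n = 3), 56.2% lower with Tec. The log2 fold change was -1.13 (SE 0.20, 95% interval -1.61 to -0.65, limma adjusted p = 0.154). Its exact permutation p-value was 0.1, the smallest this design allows. With atrial transcripts as a term the estimate was -1.03 (SE 0.19). The difference was -1.38 within the hearts with atrial transcripts and -0.68 within those without.

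C1qb, the B chain, had the highest group mean of the components in Ang II hearts, although Serping1 exceeded it in replicate 1. It measured 68.7, 91.3 and 53.4 FPKM in Ang II hearts against 26.2, 32.3 and 34.7 FPKM after Tec. These values did not overlap either. The means of 71.1 ± 19.1 and 31.1 ± 4.36 FPKM (SD, n = 3) gave a log2 fold change of -1.14 (SE 0.21, 95% interval -1.63 to -0.66, limma adjusted p = 0.154). The estimate was -1.04 (SE 0.19) with the atrial term. It was -1.27 within the hearts with atrial transcripts and -0.80 within those without.

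C1qc encodes the C chain. Its level was 32.1, 42.2 and 24.7 FPKM in Ang II hearts and 15.7, 15.4 and 17.7 FPKM in treated hearts, again without overlap. The means were 33.0 ± 8.75 and 16.2 ± 1.30 FPKM (SD, n = 3). Its log2 fold change was -0.95 (SE 0.19, 95% interval -1.40 to -0.50, limma adjusted p = 0.175), and -0.88 (SE 0.19) with the atrial term. Within the hearts with atrial transcripts the difference was -1.21, and within those without -0.54. In all 3 chains Ang II replicate 2 was the highest heart and Ang II replicate 3 the lowest of its group.

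C1q is assembled from equal numbers of its chains, and the transcripts of the 3 genes kept a narrow proportion in every heart. C1qa made up 37.1% to 40.2% of the chains' summed FPKM and C1qb 38.5% to 42.6%, and for both the groups overlapped. C1qc made up 19.0%, 19.5% and 19.7% in Ang II hearts and 23.0%, 20.3% and 20.9% in treated hearts. Its share was thus slightly higher in each treated heart, with means of 19.4% ± 0.344 and 21.4% ± 1.40 (SD, n = 3), a description with no test. The summed level of the chains was 169, 216 and 126 FPKM in Ang II hearts and 68.2, 75.7 and 84.7 FPKM after Tec.

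C3ar1, the receptor for C3a on myeloid cells, was the least abundant component, and its groups overlapped. It was at 2.41, 3.34 and 1.12 FPKM in Ang II hearts and at 1.03, 1.11 and 1.16 FPKM in treated hearts. Ang II replicate 3 sat among the treated hearts, whereas the other two Ang II hearts were above all of them. The log2 fold change was -0.59 (SE 0.25, 95% interval -1.16 to -0.011, limma adjusted p = 0.265), on a scale that understates the change of low genes. Between the hearts without atrial transcripts the difference was -0.018, and with them -0.87. The atrial term gave -0.44 (SE 0.21), and leaving out single libraries gave values from -0.87 (Ang II replicate 3 removed) to -0.36 (Ang II replicate 2 removed).

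Among the serine proteases of C1, both had lower means after Tec and overlapping groups. C1ra, encoding C1r, was at 8.69, 9.30 and 3.96 FPKM in Ang II hearts and at 3.53, 7.12 and 3.84 FPKM after Tec. Both groups held hearts near 4 FPKM, and the higher values came from the 3 libraries with atrial transcripts. The means of 7.32 ± 2.92 and 4.83 ± 1.99 FPKM (SD, n = 3) gave a log2 fold change of -0.49 (SE 0.33, 95% interval -1.27 to 0.29, limma adjusted p = 0.410). With the atrial term it was -0.19 (SE 0.092), and leaving out Ang II replicate 3 gave -0.83, whereas leaving out replicate 2 of that group gave -0.30.

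C1s1, encoding C1s, the protease that cleaves C4 and C2, was at 15.9, 18.5 and 11.3 FPKM in Ang II hearts and at 7.49, 12.6 and 8.36 FPKM in treated hearts. A single treated heart, replicate 2, exceeded the lowest Ang II heart. C1s1 was the only fibroblast-made component with an unadjusted p-value under 0.05 in the fit of the groups alone, with a log2 fold change of -0.64 (SE 0.23, 95% interval -1.18 to -0.095, limma adjusted p = 0.235). With the atrial term the estimate was -0.44 (SE 0.10), and it was -0.42 within the hearts with atrial transcripts and -0.47 within those without. C1s1 overlaps the gene Gm16567 on the opposite strand, which was listed at 0.03 FPKM in one library and at 0 in the others.

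Transcripts of C1s1 exceeded those of C1ra in every heart, by 1.76 to 2.86 times, with overlapping groups. The C1 inhibitor stayed in a nearly fixed proportion to C1ra, with a ratio of Serping1 to C1ra of 8.47 ± 0.380 in Ang II hearts and 8.50 ± 0.820 in treated hearts (SD, n = 3). The ratio of the summed C1q chains to the sum of C1ra and C1s1 was 6.87, 7.75 and 8.21 in Ang II hearts and 6.19, 3.85 and 6.94 after Tec. Its lowest value belonged to Ang II + Tec replicate 2, and the groups overlapped by one heart each.

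C4b encodes C4, the substrate of C1s. It was at 8.34, 9.98 and 2.75 FPKM in Ang II hearts and at 0.90, 5.73 and 1.71 FPKM after Tec, with replicate 2 of the treated group above Ang II replicate 3. The log2 fold change of -1.16 was the largest in size among the 9 components, but its 95% interval ran from -2.44 to 0.13 (SE 0.55, limma adjusted p = 0.295). With the atrial term it was -0.66 (SE 0.16), with an unadjusted limma p-value of 0.00692 and an adjusted one of 0.164. Within the hearts carrying atrial transcripts the difference was -0.59, and within the others -0.72. Leaving out treated replicate 2 gave -1.68, and leaving out treated replicate 1 gave -0.77.

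C3, the central component on which all activation routes meet, showed no separation of the groups. It was at 23.1, 29.8 and 12.2 FPKM in Ang II hearts and at 9.48, 31.8 and 13.0 FPKM in treated hearts, so the highest heart of all was a treated one. The means were 21.7 ± 8.90 and 18.1 ± 12.0 FPKM (SD, n = 3), and the log2 fold change was -0.34 (SE 0.46, 95% interval -1.43 to 0.75, limma adjusted p = 0.664). With the atrial term the estimate turned to 0.072 (SE 0.18), and it was 0.0032 when treated replicate 1 was left out and -0.82 when treated replicate 2 was. The 95% interval of the groups alone runs from below the estimates of the C1q chains to above 0.

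The ratio of C3 to C4b was 2.77, 2.99 and 4.43 in Ang II hearts and 10.5, 5.54 and 7.62 in treated hearts. The groups did not overlap, with means of 3.40 ± 0.904 and 7.90 ± 2.51 (SD, n = 3), a description with no test in which the highest ratio rests on the lowest C4b level. C4b has a near-identical copy, C4a, listed at 0.05 to 0.21 FPKM, which made up 1.29% to 7.22% of their sum. C1rb, the copy of C1ra, was at 0.21 to 0.98 FPKM and C1s2, the copy of C1s1, at 0 to 0.15 FPKM. None of these copies passed the filter, and how the authors' counting divided shared reads is not given in the sources used here, so the levels of C4b, C1ra and C1s1 are uncertain.

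Serping1, the C1 inhibitor, had the highest group mean after Tec and was among the top 3 in Ang II hearts, with C1qb at a like level in Ang II + Tec replicate 3 (34.7 FPKM). It was at 71.3, 82.8 and 32.9 FPKM in Ang II hearts and at 31.6, 53.8 and 34.6 FPKM after Tec. Ang II replicate 3 (32.9 FPKM) was lower than a pair of treated hearts. The means were 62.3 ± 26.2 and 40.0 ± 12.1 FPKM (SD, n = 3), with a log2 fold change of -0.56 (SE 0.36, 95% interval -1.41 to 0.28, limma adjusted p = 0.387). With the atrial term the estimate was -0.25 (SE 0.15). Between the hearts without atrial transcripts the difference was 0.0080, and with them -0.51. When single libraries were left out it ran from -0.96 without Ang II replicate 3 (limma adjusted p = 0.019, and up to 0.777 over all alternatives) to -0.31 without Ang II replicate 2.

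By group mean, the order in Ang II hearts ran C1qb, C1qa, Serping1, C1qc, C3, C1s1, C1ra, C4b and C3ar1. Neighbours in this order differed by less than the larger of their SDs from C1qb to C1qa, C1qa to Serping1, C3 to C1s1 and C1ra to C4b. After Tec the order ran Serping1, C1qb, C1qa, C3, C1qc, C1s1, C1ra, C4b and C3ar1, and the steps from C1qc to C1s1 and from C1s1 to C1ra were the only ones larger than that spread. The sum of the 9 components was 298, 370 and 190 FPKM in Ang II hearts and 122, 188 and 147 FPKM in treated hearts, with the lowest Ang II heart barely above the highest treated one.

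**Figure D2:**
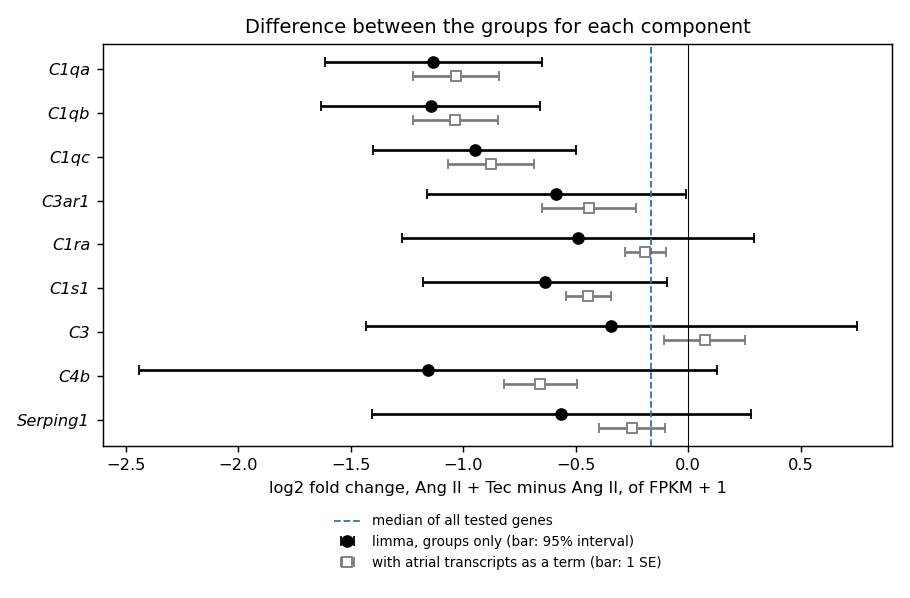
Log2 fold change of FPKM + 1 (horizontal axis, Ang II + Tec minus Ang II) of each component. Circles with 95% intervals are from the fit of the groups alone, open squares with 1 SE from the fit with atrial transcripts as a term, and the dashed line is the median of all tested genes at -0.17. The intervals of the 3 C1q chains lie below 0 in full, with upper bounds of -0.65, -0.66 and -0.50, whereas those of C1ra, C3, C4b and Serping1 span 0.

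The macrophage-made and fibroblast-made components followed single hearts in different ways. All 4 macrophage-made components, and 1 of the 5 fibroblast-made ones, had an unadjusted p-value under 0.05, with median log2 fold changes of -1.04 and -0.56. The mean log2(FPKM + 1) of the macrophage-made genes minus that of the fibroblast-made genes was 0.49, 0.63 and 0.95 in Ang II hearts and 0.73, -0.31 and 0.71 in treated hearts. The groups overlapped, and Ang II + Tec replicate 2 alone was negative. The difference between the group means was -0.32 (SDs of 0.24 and 0.60, n = 3), a description with no test, and it was 0.029 without Ang II + Tec replicate 2. It was -0.87 among the 3 hearts with atrial transcripts and -0.23 among the 3 without. These data therefore do not show that one class was lower than the other after Tec.

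With atrial transcripts as a term, 5 components again had an unadjusted p-value under 0.05, beside 18.6% of all genes lower at that level. C4b took the place of C3ar1 among them, and the median over the components was -0.44 beside -0.10 over all genes. Leaving out Ang II replicate 3 gave 8 components under that p-value, and C1qa (-1.35), C1qb (-1.33), C1qc (-1.14) and C4b (-1.64) were then called differentially expressed, among 557 genes in all. Leaving out any of Ang II replicates 1 and 2 or Ang II + Tec replicates 1 and 3 gave 3. The share of all genes under that p-value was not computed without a library, so these counts have no background beside them. The limma adjusted p-value of C1qa was 0.0020 without Ang II replicate 3, and over all 16 alternatives it ranged from 0.0020 to 0.650.

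Most markers of the cells named as sources had lower estimates after Tec, as did 80% of all genes tested. The summed level of 15 macrophage markers ran from 220 to 456 FPKM in Ang II hearts and from 166 to 179 FPKM in treated hearts. Of the 14 that were tested, 13 were lower, 11 of them with an unadjusted p-value under 0.05, and the median log2 fold change was -0.77. Mertk (-0.12, SE 0.12), Cd163 (-0.071, SE 0.16) and Lyve1 (0.093, SE 0.23) were close to level between the groups. The sum of 15 fibroblast markers ran from 505 to 1612 FPKM in Ang II hearts and from 535 to 989 FPKM in treated hearts. Of these 15, 13 were lower, 7 of them with an unadjusted p-value under 0.05, and the median was -0.92. Among all genes tested, 80% were lower and 16.5% were lower at that p-value. Gsn (0.56, SE 0.27) and Dpep1 (0.12, SE 0.15) were higher, and Gsn alone was at 307, 606 and 375 FPKM in treated hearts. The mean log2(FPKM + 1) of the fibroblast-made components minus that of the fibroblast markers was -1.50, -1.57 and -0.77 in Ang II hearts and -0.90, -0.41 and -0.70 in treated hearts, with overlap. Between the group means the markers differed by -1.25 and the components by -0.64. The part of either cell type in the component levels was not tested.

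Set against the macrophage markers, the C1q chains differed less between the groups, and on only 1 of 3 scales without overlap. The summed C1q chains were 0.603, 0.473 and 0.570 of the summed macrophage markers in Ang II hearts and 0.410, 0.457 and 0.474 after Tec. The groups overlapped by a narrow margin. Lyz2 made up most of that marker sum, at 163, 290 and 135 FPKM in Ang II hearts and 107, 97.0 and 107 FPKM after Tec. As a mean of log2(FPKM + 1), the chains exceeded the markers by 2.56, 2.50 and 2.54 in Ang II hearts and by 2.05, 2.09 and 2.24 in treated hearts, without overlap. Without the pseudocount the excess was 2.81, 2.69 and 2.91 against 2.47, 2.54 and 2.72, and the groups overlapped again. Whether the groups separated thus depended on the scale. The difference between the group means was -1.08 for the chains, and -0.40 with the pseudocount or -0.22 without it once the markers were subtracted.

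The 6 hepatocyte markers (Alb, Apoa1, Ttr, Fgb, Serpina1a and Apoh) summed to 0.21 to 0.31 FPKM in Ang II hearts and 0.10 to 1.05 FPKM in treated hearts, and none passed the filter. Markers of T and B lymphocytes summed to at most 0.64 FPKM and those of neutrophils to at most 3.14 FPKM. Haemoglobin genes summed to 247 to 1015 FPKM in Ang II hearts and 147 to 525 FPKM in treated hearts. The summed level of 5 adipocyte markers was 3.28, 10.4 and 0.55 FPKM in Ang II hearts and 0.15, 46.4 and 1.41 FPKM after Tec, highest in the same treated heart as C3. The part of adipose or atrial tissue in C3 was not tested.

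**Figure D3:**
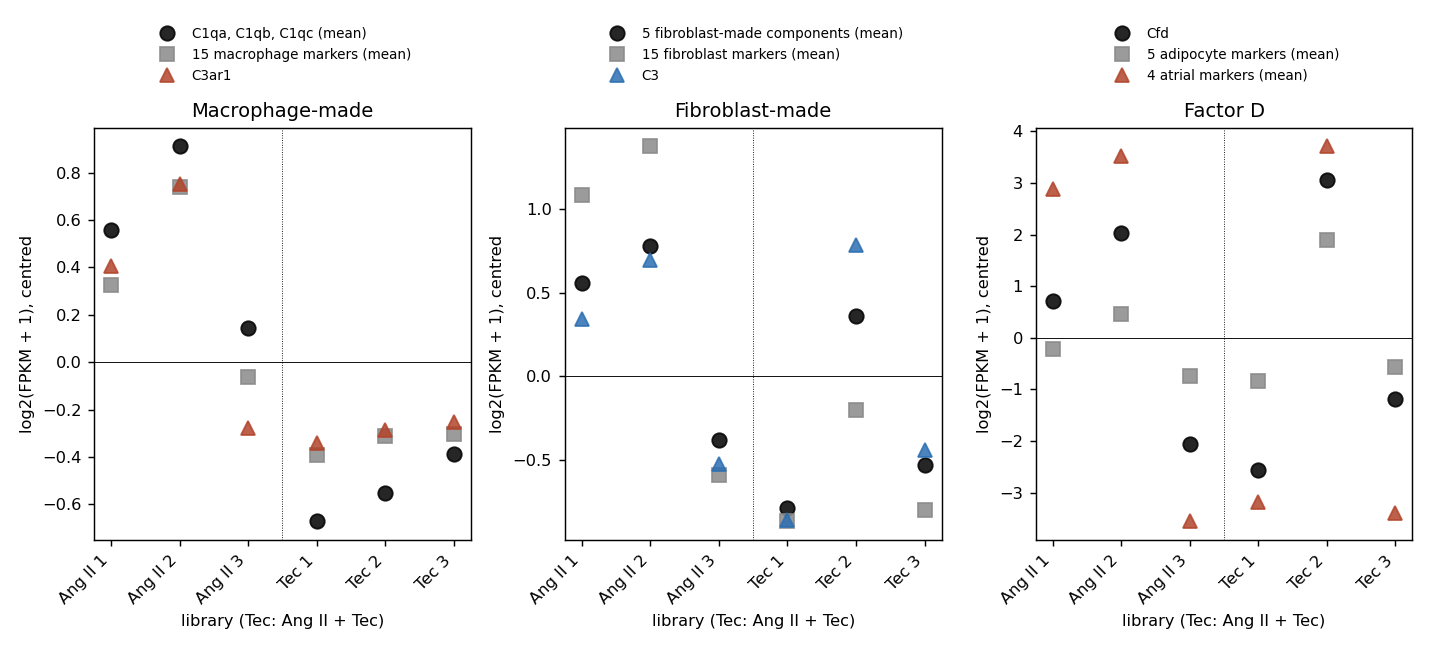
Centred log2(FPKM + 1) (vertical axis, each profile minus its own mean over the 6 libraries) by library. The left panel shows the mean of the C1q chains, 15 macrophage markers and C3ar1, the middle panel the mean of the fibroblast-made components, 15 fibroblast markers and C3, and the right panel Cfd with the adipocyte and atrial markers. C3 is highest in Ang II + Tec replicate 2 (31.8 FPKM), the library in which the C1q chains remain low, and Cfd is highest there too (56.2 FPKM).

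The wider cascade was described through 51 further complement genes, of which 46 were in the table and 26 passed the filter. Of these 26, 21 were lower and 5 higher in treated hearts, and 8 were lower with an unadjusted p-value under 0.05, namely Fcna, Cfp, Cd93, Cd55, Cd59a, C5ar1, Itgam and Itgb2 (Cd93 and C5ar1 are named after their values were seen). Among all genes tested 80% were lower and 16.5% were lower at that p-value, so the share of lower genes in the wider list was near that background. With the atrial term 7 of the 26 were lower at that p-value, beside 18.6% of all genes, and Cd55 was no longer among them. None was higher at that level and limma called 0, with adjusted p-values from 0.0945 to 0.997. The median log2 fold change was -0.44, beside -0.17 over all genes, and 19 of the 26 lay below that median of all genes. Mbl1, Mbl2, Fcnb, C8a and Cd55b were not analysed here, and C9 was listed at 0 in every library.

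Among the genes of initiation, 4 of 5 tested were lower, the same share as the 80% of all genes, and 1 of them passed an unadjusted p-value of 0.05. That gene was Fcna, a ficolin of the lectin pathway made by macrophages, at 3.11, 3.48 and 2.08 FPKM in Ang II hearts and 0.58, 0.94 and 0.88 FPKM in treated hearts. All treated hearts lay below all Ang II hearts, and its log2 fold change was -1.10 (SE 0.17, limma adjusted p = 0.0945). Colec12, a scavenger receptor collectin, had -0.44 (SE 0.34), and Colec11, a soluble collectin, was level between the groups at 9.53 ± 0.274 and 9.61 ± 1.54 FPKM (SD, n = 3).

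In the C2 and alternative pathway group, Cfp was lower with an unadjusted p-value under 0.05, and the other 3 genes tested (Cfb, C2 and Cfd) had overlapping groups. Properdin, encoded by Cfp and made by myeloid cells to stabilise the alternative convertase, was at 6.41, 8.47 and 4.50 FPKM in Ang II hearts and 1.72, 3.19 and 2.52 FPKM after Tec. Its groups did not overlap, with a log2 fold change of -1.09 (SE 0.24, limma adjusted p = 0.185). Factor B, encoded by Cfb, was at 2.13, 3.95 and 0.15 FPKM against 0.09, 1.24 and 0.79 FPKM, and C2 at 0.79, 1.34 and 0.10 FPKM against 0.15, 1.76 and 0.53 FPKM. Both were highest in the 3 libraries with atrial transcripts, with log2 fold changes of -0.68 (SE 0.52) and 0.025 (SE 0.37). Factor D, encoded by Cfd and abundant in fat cells, was chosen after its values were seen because it had the largest SE of the wider list. It was at 10.3, 27.4 and 0.66 FPKM in Ang II hearts and at 0.17, 56.2 and 2.06 FPKM in treated hearts, and its highest heart was the one with the highest adipocyte markers. Its direction depended on the scale, since the mean was 12.8 FPKM in Ang II hearts and 19.5 FPKM in treated hearts while the log2 fold change was -0.46 (SE 1.54), or 0.93 with the atrial term.

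Of the terminal components, which form the membrane attack complex, C7 and C8g passed the filter. C7 was at 1.82, 1.30 and 1.43 FPKM in Ang II hearts and 1.48, 5.10 and 1.47 FPKM in treated hearts, so a single treated heart stood above the rest. Their log2 fold changes were 0.42 (SE 0.34) and 0.17 (SE 0.13).

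The most abundant complement transcript of the wider list was that of a soluble regulator. Clusterin, encoded by Clu, was at 291, 341 and 60.0 FPKM in Ang II hearts and 115, 190 and 85.5 FPKM after Tec. Ang II replicate 3 was the lowest of all 6 hearts. The log2 fold change was -0.56 (SE 0.65), and with atrial transcripts as a term it was -0.0044.

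Cd59a, a membrane inhibitor of the attack complex, separated the groups with little spread inside either. It was at 52.3, 55.8 and 51.7 FPKM in Ang II hearts and at 33.8, 32.9 and 36.2 FPKM in treated hearts. The SD of each group was small, at 2.20 and 1.70 FPKM, and the log2 fold change was -0.62 (SE 0.10, limma adjusted p = 0.123) and also -0.62 with the atrial term. Cd55, which speeds the decay of the C3 convertases, had -0.60 (SE 0.25), and Cd46, low in these hearts, had 0.24 (SE 0.13).

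All 6 receptors tested were lower, beside 80% of all genes, and 3 of them had an unadjusted p-value under 0.05, beside 16.5%. Itgb2 and Itgam, the chains of complement receptor CR3 on leukocytes, were at 2.82, 4.21 and 1.91 FPKM and at 1.73, 2.04 and 1.03 FPKM in Ang II hearts. After Tec they were at 1.52, 1.40 and 1.42 FPKM and at 0.74, 0.53 and 0.75 FPKM, without overlap for either. Their log2 fold changes were -0.66 (SE 0.21) and -0.62 (SE 0.17).

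**Figure D4:**
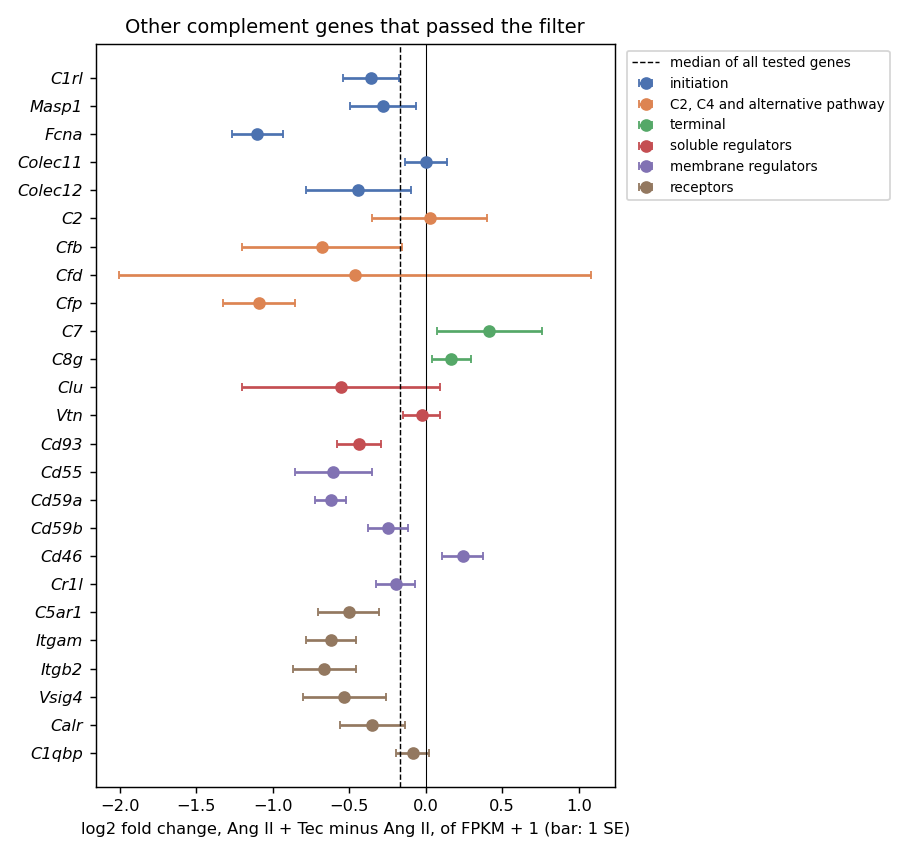
Log2 fold change of FPKM + 1 (horizontal axis, Ang II + Tec minus Ang II, bars of 1 SE) of other complement genes that passed the filter, coloured by role, with the median of all tested genes (-0.17) as a dashed line. Fcna (-1.10) and Cfp (-1.09) lie farthest to the left, C7 (0.42) farthest to the right, and Cfd (SE 1.54) has the widest bar.

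The genes outside the list whose levels followed each class most closely were found by the root mean square distance between centred log2(FPKM + 1) profiles over the 6 libraries, among 11039 genes with a mean of at least 1 FPKM. Nearest to the macrophage-made components were Rpl22l1 (0.029), Slfn2 (0.065), Rgs10 (0.070), Rpl41 (0.072) and Rps12 (0.078), and 3 of these encode ribosomal proteins or a ribosomal protein paralogue. Nearest to the fibroblast-made components were Igfbp4 (0.097), Pgam1 (0.11), Pkd1 (0.11), Vasn (0.12) and Maged1 (0.12). The distances of the components themselves from their own class ran from 0.051 for C1qc to 0.20 for C3ar1, and from 0.12 for C1ra to 0.35 for C4b. The 6 libraries share their scaling, so likeness of profile is a description of these hearts.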

How the data were processed

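RNA of heart tissue from 6 mice (3 per group) was sequenced as poly(A) libraries. The authors trimmed reads with Cutadapt and deposited FPKM per gene, and the submitters' processing notes name Bowtie 0.12.2, HISAT2 2.0, StringTie 1.3.0 and the build mm8. The table's coordinates match GENCODE M21 (GRCm38) for 26777 of 30832 shared genes, so GRCm38 is used. FPKM keep no read totals, so absolute depth is unknown and no counting interval is given. The label text on RNA extraction mentions adipose tissue, whereas the tissue label is heart.

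Genes reaching 0.5 FPKM in 3 or more libraries were fitted as log2(FPKM + 1) with limma 3.58.1 (lmFit, eBayes with trend) in R 4.3.3, with no covariate, after a check on simulated data. Group labels came from sample titles. The components, lists and markers were chosen with earlier results of these data known. Named genes were all components, the 2 largest differences in each direction per role, near-identical copies and the 5 nearest profiles per class. A gene of the wider list that this rule selects is not reported here. Alternatives changed the pseudocount, filter, scaling, variance model, weights and replicate block, and left out each library. Promoter windows of C1ra, C1s1 and C3ar1 were added to the planned ones, and C1qa, C4b and Serping1 had no entry in the sequence table used. Python 3.11.15, pandas 2.3.3 and matplotlib 3.10.9 were used.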

Additional observations from a re-analysis of the deposited data

How the results depend on the processing

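Over 9 components and 16 alternatives, 134 of 144 log2 fold changes kept their direction and their side of the threshold, 8 passed it and 2 changed sign. The 2 were those of C3, at 0.072 with atrial transcripts as a term and 0.0032 without Ang II + Tec replicate 1, in a range from -0.82 when a library was left out. The 8 were C1qa, C1qb, C1qc and C4b with array weights and without Ang II replicate 3. C1qa, C1qb and C1qc kept an unadjusted p-value under 0.05 in all 16. Their log2 fold changes were smaller in size with median-of-ratios scaling, at -0.90, -0.91 and -0.72. The 21 differentially expressed genes became 3 without a filter, 522 with array weights, 13 with the atrial term, and 2 (without Ang II + Tec replicate 2) to 557 (without Ang II replicate 3) when a library was left out. Leaving out Ang II replicate 1 or 2 gave 3 or 7, and leaving out replicate 1 or 3 of the treated hearts gave 4 or 3. The 5 components with an unadjusted p-value under 0.05 became 8 with array weights, and 3 to 8 when a library was left out (3 after removal of Ang II replicate 1 or 2 or treated replicate 1 or 3). The share of all genes under that p-value was not computed for these fits, so the counts are not a result about the components. The median log2 fold change over all 9 components ranged from -0.96 to -0.41. It was -0.43 with median-of-ratios scaling, where the median of all genes moved from -0.17 to 0.0020. The difference between the classes ranged from -0.49 to 0.029 when a library was left out. Deviations from the group mean correlated at -0.039, 0.43 and 0.38 between same-numbered hearts, and from -0.435 to 0.226 between hearts of different number. The labels do not say that the numbers pair hearts, so the main fit left them unpaired, and a pairing was not tested. A replicate block gave 22 differentially expressed genes and 7 components under an unadjusted p-value of 0.05, again with no share of all genes computed. The causes were not tested. Groups of 3 and an unknown absolute depth limit what can be called.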
